A study of Mus musculus with 6 samples.

Results

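Aldehyde dehydrogenases are NAD(P)-dependent enzymes that oxidise aldehydes to carboxylic acids. They were followed here through 10 mouse genes, Aldh1a1, Aldh1b1, Aldh2, Aldh3a2, Aldh4a1, Aldh6a1, Aldh7a1, Aldh9a1, Aldh16a1 and Aldh18a1, in megakaryocyte progenitors (MkP), the sorted blood precursors of megakaryocytes and platelets. Members were all probe sets that the platform annotation assigns to 1 of these symbols, which gave 22 probe sets of 45037 and 10 genes of 18194. The genes were selected on measured values, namely the signals of the same fetal liver and bone marrow arrays, with earlier results of that comparison known. Their differences between the tissues are therefore given as a description, with no p-value for any member.

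All cells came from wild type mice of the C57BL/6 strain and were profiled on Affymetrix arrays, 1 array per sample. The 3 bone marrow samples came from adult mice 12 to 18 weeks old and the 3 fetal liver samples from E13.5 embryos. Both were sorted by flow cytometry for cells without lineage markers or Sca-1 that carried CD41, CD150 and c-kit. Developmental age and organ differ together between the groups and cannot be told apart, and the labels give neither sex nor the number of animals pooled. They name the replicates biological, and the SDs below measure the spread between these samples. The SEs and p-values of limma draw that spread toward a trend with intensity over all genes. An SE can therefore be larger or smaller than the gene's own arrays alone would give.

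Members of this family differ in their substrates and in where they act in the cell. Some make retinoic acid from retinaldehyde, some clear acetaldehyde and the aldehydes of lipid peroxidation, and others carry out steps of amino acid, choline or carnitine metabolism. In blood, aldehyde dehydrogenase activity is widely used to isolate primitive progenitors, and ALDH2 protects blood stem cells from DNA damage by endogenous aldehydes.

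In marrow MkP, Aldh1a1 was far brighter than in fetal liver MkP, where its probe set lay at or near background, and Aldh2 was brighter in marrow to a lesser degree. The marrow arrays of Aldh1b1 and the fetal liver arrays of Aldh7a1 and Aldh18a1 lay above those of the other tissue without passing the adjusted threshold. On their brightest probe sets Aldh9a1 and Aldh16a1 differed by less than their replicates did, while another Aldh9a1 probe set differed by 0.36 with the opposite sign. Aldh4a1 was too dim to compare. Of the 10 genes 9 passed the filter on dim probe sets, and among these 2 were past the threshold of 0.05 on the limma adjusted p as higher in marrow (Aldh1a1 and Aldh2), against 4.76% of the 11625 genes tested, and 0 were past it as higher in fetal liver, against 3.01%. At an unadjusted p under 0.05 the counts were 3 higher in marrow and 1 higher in fetal liver, against 12.1% and 10.7% of all genes. Groups did not overlap for 7 members, with marrow above for 4 and fetal liver above for 3, as was so for 14.2% and 13.8% of all genes. The median difference of the 9 members was -0.14 on the log2 scale, fetal liver minus marrow, against 0.01 over all genes tested; with each array centred on its median these were 0.11 and 0.26.

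Promoters are printed for 4 of the members whose tissues did not overlap, Aldh1a1, Aldh1b1, Aldh3a2 and Aldh18a1, to show what stands before their starts. Of these, Aldh1a1 alone was past the adjusted threshold. Each sequence is the 250 bases before a gene start of the RefSeq annotation (GRCm38.p6), 5′ to 3′ on the strand of the gene. Such windows were examined for 8 members, and RefSeq lists 2 starts for Aldh1a1. Those of Aldh6a1, whose tissues did not overlap either, are described below but not printed. Capitals mark matches, on either strand, to 6 motifs: AGATAA, the core bound by GATA factors, GGAAGT, an ETS core, CCAAT, the nuclear receptor half-site AGGTCA, the TATA box TATAAA and the E-box CACGTG. No match overlapped another in the windows of the members.
Aldh1a1, upstream start, chr19:20492333-20492582, plus strand: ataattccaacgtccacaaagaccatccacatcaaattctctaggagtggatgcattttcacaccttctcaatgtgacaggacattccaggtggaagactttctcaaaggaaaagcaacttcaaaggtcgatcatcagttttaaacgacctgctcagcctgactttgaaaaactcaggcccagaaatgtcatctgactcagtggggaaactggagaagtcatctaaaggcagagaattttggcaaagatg
Aldh1a1, downstream start, chr19:20601718-20601967, plus strand: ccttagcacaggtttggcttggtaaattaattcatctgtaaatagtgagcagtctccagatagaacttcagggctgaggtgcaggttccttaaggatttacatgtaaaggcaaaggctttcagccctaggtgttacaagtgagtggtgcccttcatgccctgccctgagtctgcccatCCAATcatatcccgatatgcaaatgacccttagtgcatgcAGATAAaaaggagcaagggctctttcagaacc
Aldh1b1, chr4:45798772-45799021, plus strand: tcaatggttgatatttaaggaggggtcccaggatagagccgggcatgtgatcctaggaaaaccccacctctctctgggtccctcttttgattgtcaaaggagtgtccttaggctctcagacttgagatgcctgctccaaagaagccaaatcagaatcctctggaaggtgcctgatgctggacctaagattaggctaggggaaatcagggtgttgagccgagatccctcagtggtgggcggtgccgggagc
Aldh3a2, chr11:61267187-61267436, minus strand: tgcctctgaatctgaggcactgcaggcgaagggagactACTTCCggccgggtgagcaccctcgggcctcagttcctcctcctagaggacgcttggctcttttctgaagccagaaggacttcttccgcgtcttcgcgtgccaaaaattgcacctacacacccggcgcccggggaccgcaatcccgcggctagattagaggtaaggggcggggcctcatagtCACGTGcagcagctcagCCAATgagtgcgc
Aldh18a1, chr19:40588464-40588713, minus strand: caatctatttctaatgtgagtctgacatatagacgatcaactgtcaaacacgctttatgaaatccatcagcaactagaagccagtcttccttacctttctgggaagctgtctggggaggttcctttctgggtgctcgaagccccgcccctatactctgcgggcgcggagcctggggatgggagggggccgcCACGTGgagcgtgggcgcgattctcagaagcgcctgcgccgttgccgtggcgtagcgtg

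The windows of Aldh1a1 held 3 and 1 CpG dinucleotides and that of Aldh1b1 held 4, against a median of 6 over 32851 windows of this length. Those of Aldh3a2, Aldh18a1 and Aldh16a1 held 18 each, the 2 windows of Aldh6a1 held 2 and 9, and those of Aldh9a1 and Aldh4a1 held 8 and 10. The downstream Aldh1a1 window carried AGATAA beginning 32 bases before the start and CCAAT beginning 72 bases before it, which 9.99% and 33.8% of all windows hold. The Aldh9a1 window, not printed, held both too, on the opposite strand, AGATAA at 150 and CCAAT at 54 bases before its start. CCAAT also stood in the unprinted windows of Aldh4a1, Aldh6a1 and Aldh16a1. The upstream Aldh1a1 window and the Aldh1b1 window held none of the 6 motifs. CACGTG stood 59 bases before the Aldh18a1 start and 30 bases before the Aldh3a2 start, and 6.02% of all windows hold it. The Aldh3a2 window also held CCAAT at 13 bases and GGAAGT, on the opposite strand, at 212 bases before the start, and 19.7% of all windows hold the latter. AGGTCA and TATAAA, in 14.0% and 12.4% of all windows, were in none of the 5 printed. Of the 2 unprinted Aldh6a1 windows, 1 held AGGTCA at 94 bases before its start and the other GGAAGT at 36 bases. These matches describe the letters and were not tested against the signals.

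Aldh1a1 encodes the cytosolic retinaldehyde dehydrogenase that makes retinoic acid and also oxidises lipid aldehydes. Its single probe set (1416468_at) had signals of 2562, 1505 and 1400 in marrow replicates 1, 2 and 3 and of 13.8, 33.4 and 13.2 in fetal liver replicates 1, 2 and 3. The highest fetal liver value was far below the lowest marrow value, and within marrow replicate 1 stood above the other arrays. A signal counted as above background when it exceeded the highest of 27 bacterial control probe sets on its array, which ranged from 22.2 to 35.1, and by this measure fetal liver replicate 2 alone was above background. The marrow arrays had a mean of 1822 ± 643 (SD, n = 3), the fetal liver arrays one of 20.1 ± 11.5, and the log2 difference was -6.37 ± 0.48 (SE of the limma fit). This is 82.5-fold after an offset of 2.87, the 10th percentile of the signals, was added to each signal before taking log2. With signals under the control level raised to it, the difference was -5.65.

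**Figure D1:**
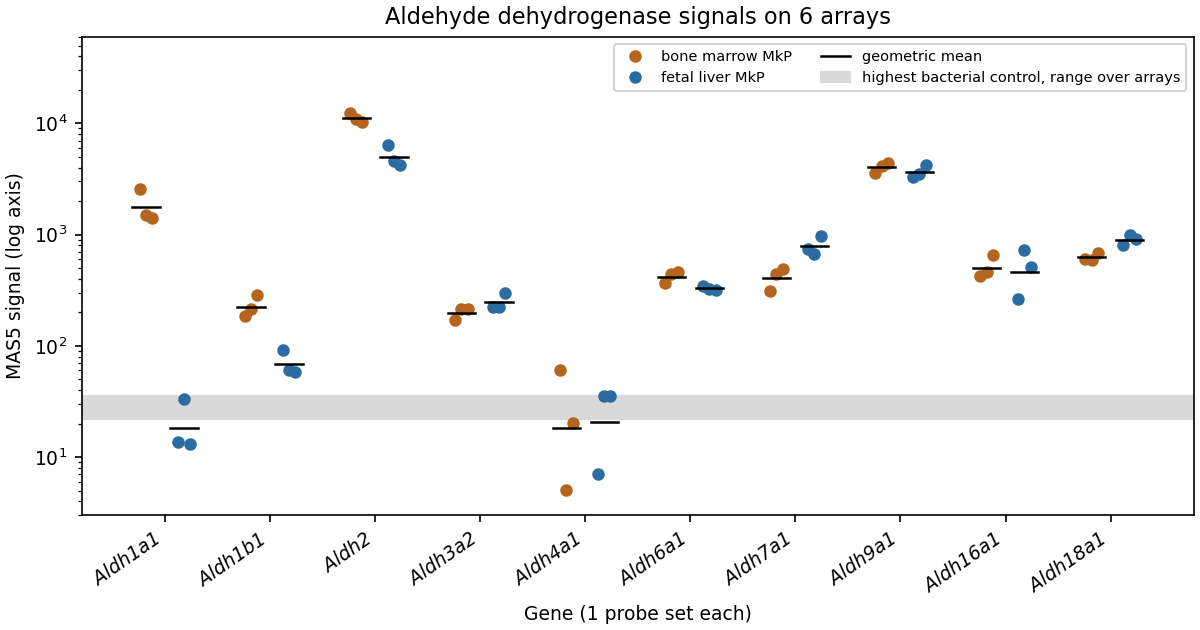
Array signal (MAS5, log axis) of the 10 aldehyde dehydrogenase genes, 1 probe set each, on the 3 bone marrow arrays (brown) and 3 fetal liver arrays (blue), with the geometric mean as a bar and the range of the highest bacterial control as a grey band. Aldh1a1 lies at 1400 to 2562 in marrow and at 13.2 to 33.4 in fetal liver. Heights of different probe sets are not comparable.

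Summed signals of granulocyte, of macrophage and of mast cell, basophil and eosinophil genes were also lower in fetal liver. For 12 granulocyte genes with a named probe set, the summed signal was 38769 to 61867 on the marrow arrays and 3436 to 5737 on the fetal liver arrays, and all 12 were above background on some marrow array, against 8 of 12 on some fetal liver array (Ltf, Fcnb, Lcn2 and Mmp8 were not). The sums were 2034 to 4113 and 347 to 509 for 10 macrophage genes and 2005 to 3854 and 407 to 627 for 9 genes of mast cells, basophils and eosinophils, of which 4 each were above background on none of the fetal liver arrays. Over all genes tested, limma called 4.76% lower and 3.01% higher in fetal liver. By the limma test all 10 granulocyte genes measured were lower in fetal liver, among them Mpo (17513 ± 8052 in marrow against 3558 ± 1284 in fetal liver, mean ± SD, n = 3) and S100a9 (9793 ± 2471 against 195 ± 261). So were 3 of 6 macrophage genes measured, Csf1r (1676 ± 577 against 195 ± 65.1), Vcam1 (211 ± 167 against 18.0 ± 15.0) and Cd163 (at least 5.85-fold), while Cd68 and C1qb overlapped. Of 7 mast cell, basophil and eosinophil genes measured, 3 were lower, Ms4a2 (721 ± 116 against 103 ± 51.7), Prg2 (at least 17.6-fold) and Mcpt8 (at least 12.2-fold), and Hdc (384 ± 171 against 194 ± 60.5) was not called. Where no array of a tissue was above background, the bound sets the mean log2 signal of the other tissue against the control level. Within marrow, Aldh1a1 was highest on replicate 1 and all 3 of these sums on replicate 3. Single marker genes had no common order. Mpo and Ctsg were highest on marrow replicate 3, S100a8, S100a9, Ltf, Camp and Ngp on replicate 2, and Cd163 on replicate 1. Stem cell genes, 10 with a probe set, summed to 6222 to 8219 in marrow and 5257 to 6205 in fetal liver, and the called genes went both ways. Lower in fetal liver were 4 of 9 measured, Hoxa9 (1496 ± 282 against 89.3 ± 40.5), Hlf (798 ± 348 against 69.0 ± 41.3), Mecom (371 ± 208 against 27.7 ± 19.3) and Esam (825 ± 178 against 288 ± 117). Higher there were 2, Ctnnal1 (357 ± 26.1 against 1333 ± 352) and Fgd5 (at least 6.52-fold, above background on no marrow array), while the brightest, Mllt3 and Meis1, were not called. In bulk RNA, fewer cells of a type and less RNA per cell cannot be told apart, and the part of these markers in the Aldh1a1 difference was not tested. Hepatocyte genes, 13 with a probe set, summed to 335 to 820 in marrow and 697 to 3774 in fetal liver, highest on fetal liver replicate 2, where Aldh1a1 was 33.4, and 6 of the 13 (Apob, Fga, Fgb, Fgg, Ambp and Cps1) were above background on no fetal liver array. In marrow 6 were also above background on no array (Fga, Fgb, Fgg, Ahsg, Ambp and Cps1). Of 6 measured, 5 had a positive difference (median 1.75, against 0.01 over all genes tested). At an unadjusted limma p under 0.05, 3 were higher and 0 lower in fetal liver, against 10.7% and 12.1% of all genes. Apoa1 alone was called (44.7 ± 30.2 against 217 ± 48.5), and the brightest, Afp (310 ± 244 against 1140 ± 1433), was not.

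**Figure D2:**
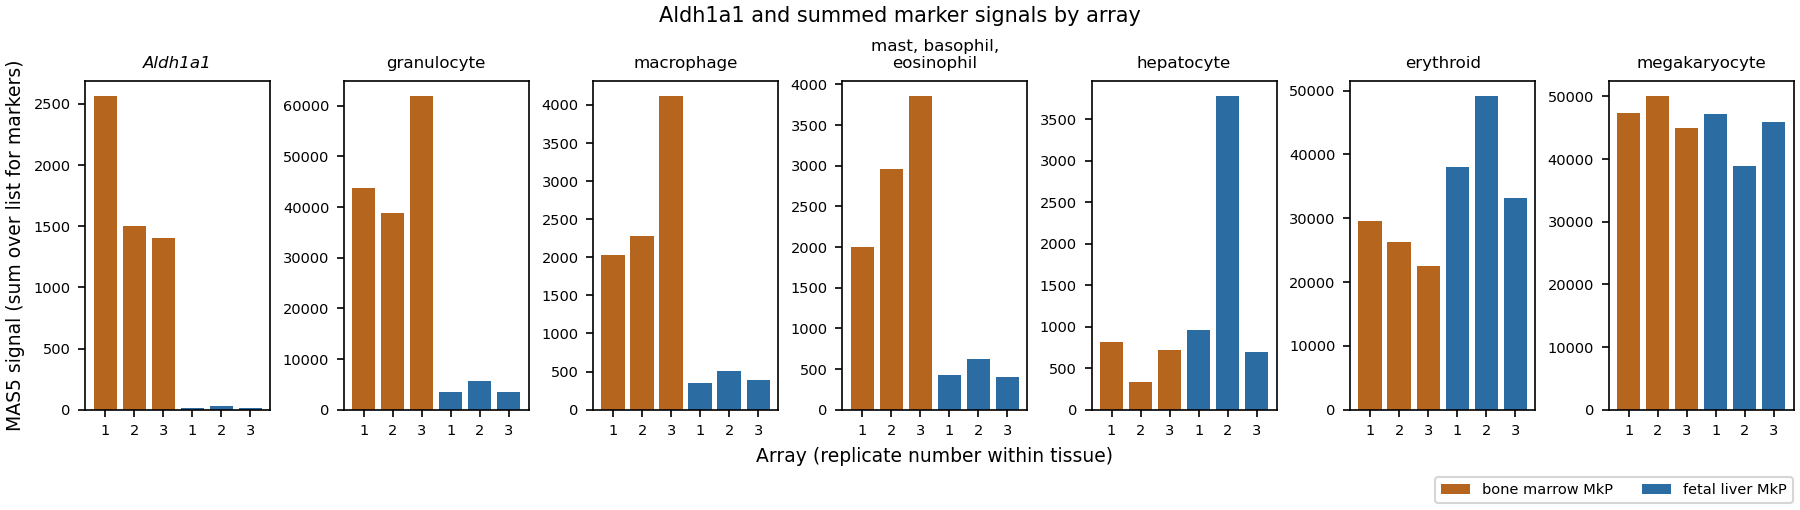
Signal of Aldh1a1 and summed signals of 6 marker lists (MAS5, linear axes from 0, each panel with its own scale) on each array, brown for bone marrow and blue for fetal liver. Granulocyte sums are 38769 or more in marrow and 5737 or less in fetal liver, while megakaryocyte sums overlap between the tissues. The brightest megakaryocyte genes went opposite ways without overlap, Pf4 higher in marrow and Itgb3 higher in fetal liver.

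Aldh2, the mitochondrial enzyme that oxidises acetaldehyde, was measured by 5 probe sets, and all 5 had a negative difference. The one that represented the gene (1434988_x_at, the brightest) read 12507, 10960 and 10196 in marrow replicates 1, 2 and 3 and 6433, 4567 and 4190 in fetal liver replicates 1, 2 and 3. No fetal liver array reached the lowest marrow array, and replicate 1 was the highest in each tissue. Means were 11221 ± 1177 (SD, n = 3) and 5063 ± 1201, and the log2 difference was -1.17 ± 0.19 (SE), or 2.25-fold. The suffix of this probe set marks probes that can match several transcripts. Probe set 1434987_at, without that suffix, read 8318 to 10732 in marrow and 3277 to 5344 in fetal liver, with a difference of -1.19 ± 0.21, and 1448143_at differed by -0.92 ± 0.21, also without overlap. The remaining 2 were dim and variable: 1437410_at differed by -1.75 ± 0.60, with marrow signals of 184 to 779 that overlapped those of fetal liver, and 1457155_at differed by -1.84 ± 0.71, with marrow replicate 1 (42.2) just above fetal liver replicate 1 (41.5). Without the intensity trend in the variance model, the SE of Aldh2 was 0.26 and that of Aldh1b1 0.30, in place of 0.19 and 0.46. Aldh2 was then no longer past the threshold and Aldh1b1 was.

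Aldh1b1, a mitochondrial relative of Aldh2 that oxidises acetaldehyde and retinaldehyde, had signals of 184, 213 and 285 in marrow replicates 1, 2 and 3 and of 92.0, 61.0 and 57.7 in fetal liver replicates 1, 2 and 3. The tissues did not overlap, and every array was above background. Means were 227 ± 52.0 (SD, n = 3) and 70.2 ± 19.0, a log2 difference of -1.66 ± 0.46 (SE), or 3.17-fold. It was not past the adjusted threshold in the fit as designed, and was past it in 4 of 14 alternatives in which it was tested (an offset of 16, no intensity trend, the mean of the probe sets and the floor at the control level).

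The next protein-coding gene after Aldh1a1 on its chromosome in the RefSeq table (GRCm38.p6) is Aldh1a7, which is closely similar in sequence, so that cross-hybridisation between their probe sets is possible. Its probe set (1418601_at) read 130, 42.5 and 114 in marrow replicates 1, 2 and 3 and 23.1, 19.2 and 34.1 in fetal liver replicates 1, 2 and 3, with a difference of -1.69 ± 0.61 (SE, limma adjusted p = 0.129). All marrow arrays were above fetal liver, and the part of cross-hybridisation in this difference was not tested. Of the other aldehyde dehydrogenases, 11 genes that are not members, 10 had a named probe set and 4 passed the filter. These 4 all had a negative difference (median -0.77, against 0.01 over all genes), but Aldh1l1 and Aldh3b1 overlapped between the tissues. Limma called 0 of them in either direction, with 1 (Aldh1a7) at an unadjusted p under 0.05 and 0 called in any of the 15 alternatives. Signs were mixed below the filter. Aldh1a2 (1.42), Aldh1l2 (1.18) and Aldh5a1 (0.56) were positive, Aldh3a1 (-0.65) and Aldh3b2 (-0.29) negative, and Aldh8a1 had probe sets of either sign. In fetal liver the mean log2 signal of Aldh1a7 (4.79) was under the filter cut of 5.10. Aldh1l1, a folate enzyme that oxidises 10-formyltetrahydrofolate, read 140 to 274 in marrow and 90.1 to 221 in fetal liver (difference -0.76 ± 0.51, limma adjusted p = 0.423). Aldh1a2, the retinaldehyde dehydrogenase of the early embryo, was below the filter, with signals from 1.52 to 64.8 in marrow and 14.7 to 51.4 in fetal liver.

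Aldh7a1 encodes antiquitin, an enzyme of lysine breakdown that also oxidises betaine aldehyde. Its probe set 1460167_at read 314, 440 and 489 in marrow replicates 1, 2 and 3 and 742, 669 and 975 in fetal liver replicates 1, 2 and 3. Every fetal liver array was above every marrow array. Means were 414 ± 90.4 (SD, n = 3) and 796 ± 160, a log2 difference of 0.94 ± 0.32 (SE), or 1.92-fold. The other 2 probe sets of the gene were also positive, at 0.82 ± 0.71 and, below the filter, 0.74, but both were dim and overlapped between tissues. Under median centring, which moved the median of all genes to 0.26, the difference was 1.19 and Aldh7a1 was past the adjusted threshold, the only alternative of 15 in which a member was called higher in fetal liver. Summed erythroid signals (12 genes, Hba-a1 above background on no array) also differed, at 22559 to 29555 in marrow and 33237 to 49097 in fetal liver. Of 11 measured, 10 had a positive difference (median 1.11) and 4 were called higher in fetal liver, against 3.01% of all genes. These were Klf1 (312 ± 47.5 in marrow against 1693 ± 391), Rhag (32.6 ± 23.4 against 236 ± 97.7), Tfrc (2754 ± 458 against 5558 ± 1007) and Hbb-y (at least 25.1-fold, above background on no marrow array). The brightest, Car2 (13796 ± 985 against 12667 ± 606) and Hemgn (3917 ± 711 against 5598 ± 487), were not called. The erythroid sum, though not Car2, was highest on fetal liver replicate 2, where Aldh7a1 was the lowest of the fetal liver arrays. The part of erythroid genes in the fetal liver differences was not tested.

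Aldh18a1 encodes the mitochondrial synthase that turns glutamate into the precursor of proline and ornithine, and Aldh4a1 the enzyme that runs proline breakdown back to glutamate. Aldh18a1 had 5 probe sets, all with a positive difference, from 0.28 to 0.90. The representative one (1437325_x_at) read 602, 590 and 681 in marrow replicates 1, 2 and 3 and 800, 986 and 920 in fetal liver replicates 1, 2 and 3, without overlap. Means were 624 ± 49.5 (SD, n = 3) and 902 ± 94.5, a log2 difference of 0.53 ± 0.26 (SE), or 1.44-fold. A second probe set of the same kind, 1435855_x_at, read 397 to 531 in marrow and 656 to 748 in fetal liver, again without overlap. The only one without the suffix for shared probes, 1415836_at, had the widest difference (0.90 ± 0.38) but overlapped, because fetal liver replicate 1 (486) lay among the marrow arrays (394 to 561) while replicates 2 and 3 read 1224 and 1049. Aldh4a1 did not pass the filter: its signals were 61.2, 5.01 and 20.1 in marrow and 7.06, 35.4 and 35.6 in fetal liver, above background on 1 and 2 arrays, and no difference could be judged at this brightness.

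Aldh6a1, which completes valine and thymine breakdown as methylmalonate semialdehyde dehydrogenase, read 364, 441 and 458 in marrow replicates 1, 2 and 3 and 347, 323 and 316 in fetal liver replicates 1, 2 and 3. The tissues did not overlap, yet the gap between the nearest arrays was narrow, and the log2 difference of -0.35 ± 0.33 (SE) was about as large as its error. That error is moderated over all genes, and the gene's own arrays were tighter, with a log2 SD of 0.07 in fetal liver and 0.18 in marrow. Aldh3a2, the fatty aldehyde dehydrogenase of the endoplasmic reticulum, read 171, 212 and 215 in marrow and 221, 223 and 299 in fetal liver, differing by 0.30 ± 0.39. Here too the arrays did not overlap, while marrow replicate 3 (215) and fetal liver replicate 1 (221) nearly met.

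Aldh9a1, which makes a precursor of carnitine and oxidises aminobutyraldehyde, gave different signs on its 2 probe sets. On 1436689_a_at the signals were 3588, 4171 and 4433 in marrow and 3317, 3532 and 4256 in fetal liver, which differed by -0.14 ± 0.19 (log2, SE) and turned to 0.11 under median centring and to 0.11 with the mean of its probe sets. On 1437398_a_at they were 2934, 2385 and 2450 in marrow and 2855, 3222 and 3955 in fetal liver, a difference of 0.36 ± 0.21. The tissues overlapped on both. Aldh16a1, a family member without the catalytic cysteine, also overlapped on both of its probe sets. The representative one (1423731_at) read 426, 463 and 653 in marrow and 265, 733 and 509 in fetal liver, so that the fetal liver arrays enclosed the marrow range. Its difference of -0.12 ± 0.41 turned positive under quantile normalization (0.02) and median centring (0.13) and without marrow replicate 3 (0.06) or fetal liver replicate 1 (0.27).

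**Figure D3:**
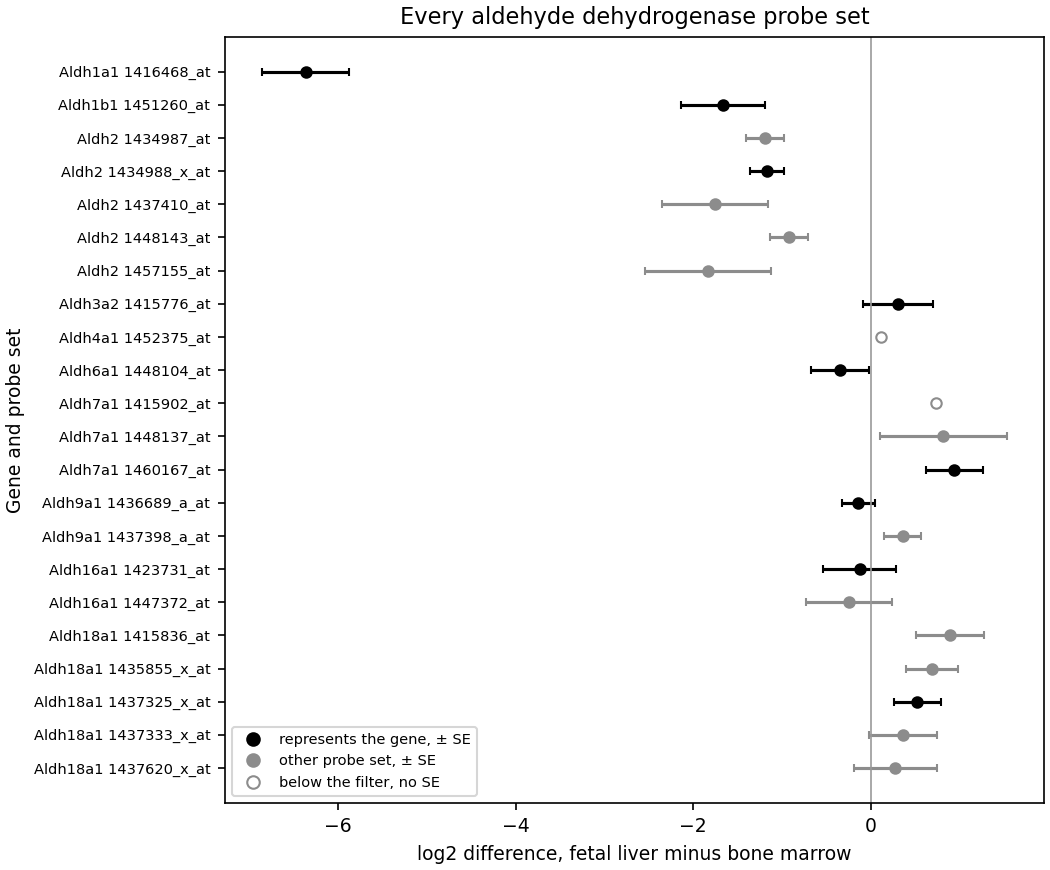
Log2 difference, fetal liver minus bone marrow, of all 22 member probe sets, with the SE of a limma fit over 27022 probe sets (black, the probe set that represents a gene; grey, others; open, below the filter and without SE). All 5 Aldh2 probe sets lie left of 0 and all 5 Aldh18a1 and 3 Aldh7a1 probe sets right of it, while the 2 of Aldh9a1 lie on opposite sides.

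Over all 22 member probe sets, marrow lay wholly above fetal liver on 7, fetal liver above marrow on 4, and the tissues overlapped on 11, where 11.8% and 8.68% of all 45037 probe sets lay wholly above in marrow and in fetal liver. Probe sets of 1 gene are not independent, and 4 of the 7 belong to Aldh2. In a fit over every probe set that passed the filter, 4 of the 20 member probe sets tested were past the adjusted threshold, 1 for Aldh1a1 and 3 for Aldh2, against 5.06% of 27022. Replicates varied unequally among the members. The log2 SD of the representative probe set was 0.15 in marrow and 0.33 in fetal liver for Aldh2, and 0.16 and 0.19 for Aldh9a1. For Aldh1a1 it was 0.48 and 0.67, the latter for signals around the control level.

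Partner genes of these enzymes were followed in 6 lists. Over all genes tested, limma called 3.01% higher and 4.76% lower in fetal liver. At an unadjusted p under 0.05 these shares were 10.7% and 12.1%. Of 8 measured genes of amine, choline and carnitine metabolism, 3 rose in fetal liver and 0 fell by the limma test (1 lower at an unadjusted p under 0.05), with a median of 0.43. Sardh, the mitochondrial sarcosine dehydrogenase, which releases formaldehyde, read 43.0, 73.7 and 132 in marrow replicates 1, 2 and 3 and 1026, 989 and 1221 in fetal liver replicates 1, 2 and 3, a rise of 3.79 ± 0.45 on the log2 scale (SE, limma adjusted p = 7.97e-04). It was past the threshold in all 15 alternatives (adjusted p from 2.70e-04 to 0.00802). Maoa, a monoamine oxidase, rose by 1.52 ± 0.39 (limma adjusted p = 0.0397) from 115 to 205 in marrow to 395 to 522 in fetal liver. Srm, spermidine synthase, rose by 1.15 ± 0.28 (limma adjusted p = 0.031). Maoa and Srm were each called in 9 of 15 alternatives: both calls were lost in 5 of the 6 fits that left out 1 array (each but that without marrow replicate 3), Maoa also without the filter and Srm without the intensity trend. The count of 3 became 1 in those 5 fits, and Chdh, choline dehydrogenase, was called lower in fetal liver without marrow replicate 2 alone (limma adjusted p = 0.0497).

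Genes of fatty aldehydes, ether lipids and sphingosine 1-phosphate, the partners of Aldh3a2, fell in 2 of 11 measured cases and rose in 0 by the limma test (median -0.14). Over all genes 4.76% fell and 3.01% rose. At an unadjusted p under 0.05, 4 were lower and 0 higher, against 12.1% and 10.7% of all genes. Far2, a fatty acyl-CoA reductase, read 168, 240 and 741 in marrow and 24.4, 29.0 and 47.7 in fetal liver, above background on 2 of 3 fetal liver arrays, a change of -3.15 ± 0.62 (SE, limma adjusted p = 0.0123). Averaging its probe sets ended the call (limma adjusted p = 0.0878), and over 14 alternatives the value ran from 0.00694 to 0.0878. Agps, which forms the ether bond of plasmalogens, fell by 1.07 ± 0.29 (limma adjusted p = 0.0499), from 810 to 1291 in marrow to 424 to 520 in fetal liver. This call was at the edge of the threshold and was lost in 10 of 15 alternatives (adjusted p from 0.0462 to 0.48), including 5 of the 6 fits with 1 array left out (all but that without marrow replicate 1). The list's count in marrow became 1 in those 5 fits and 0 with probe sets averaged.

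Of retinoid genes, which lie before and after Aldh1a1 in retinoic acid synthesis, 10 of 29 were measured, and limma called 0 in either direction (median -0.003). At an unadjusted p under 0.05, 2 were higher and 2 lower, against 10.7% and 12.1% of all genes. Rxra, the retinoid X receptor that partners the retinoic acid receptors, read 46.0 to 76.6 in marrow and 124 to 219 in fetal liver, a difference of 1.39 ± 0.49 (SE, limma adjusted p = 0.117). Fabp5, a lipid chaperone that binds retinoic acid, read 7375 to 10589 and 11030 to 14401, a difference of 0.56 ± 0.18 (limma adjusted p = 0.0921) that was past the threshold in 4 of 15 alternatives (quantile normalization, median centring, mean of probe sets and replicate block; limma adjusted p from 0.00907 to 0.272, 0.0179 with the block). Without fetal liver replicate 1, Rxrb, another retinoid X receptor, was called lower in fetal liver (limma adjusted p = 0.0353). Most retinoid genes with a probe set (16 of 26) were below the filter, Rara, Crabp1 and Cyp26a1 among them.

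No gene was called by limma in the remaining 3 lists. Genes of alcohol and aldehyde oxidation and reduction had a median of 0.05 over 9 measured (0 higher and 1 lower at an unadjusted p under 0.05). Cbr3, a carbonyl reductase, read 62.6 to 84.6 in marrow and was not above background on any fetal liver array, at least 2.23-fold lower (limma adjusted p = 0.107; 0.0317 without the intensity trend, 0.0317 to 0.218 over 14 alternatives). The other named gene, Akr7a5, an aldehyde reductase, differed by 1.01 ± 0.47 (limma adjusted p = 0.235). Proline and ornithine genes, the partners of Aldh18a1 and Aldh4a1, had a median of 0.13 over 8 measured (0 in either direction at an unadjusted p under 0.05), with Oat, ornithine aminotransferase, at 0.41 ± 0.20 (limma adjusted p = 0.265) and Glul, glutamine synthetase, at -0.42 ± 0.20 (limma adjusted p = 0.251). In the breakdown of branched-chain amino acids and lysine, the pathways of Aldh6a1 and Aldh7a1, 18 of 23 measured genes had a positive difference, and the median was 0.29. At an unadjusted p under 0.05, 2 were higher and 0 lower, against 10.7% and 12.1% of all genes. Mccc1, a subunit of methylcrotonyl-CoA carboxylase, differed by 1.30 ± 0.39 (limma adjusted p = 0.0699; 0.0218 without marrow replicate 2 and 0.0333 under median centring, 0.0218 to 0.593 over 15 alternatives). Dld, the lipoamide dehydrogenase of several mitochondrial complexes, differed by 0.85 ± 0.29 (limma adjusted p = 0.11; 0.0315 under median centring, 0.0315 to 0.324 over 15 alternatives).

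**Figure D4:**
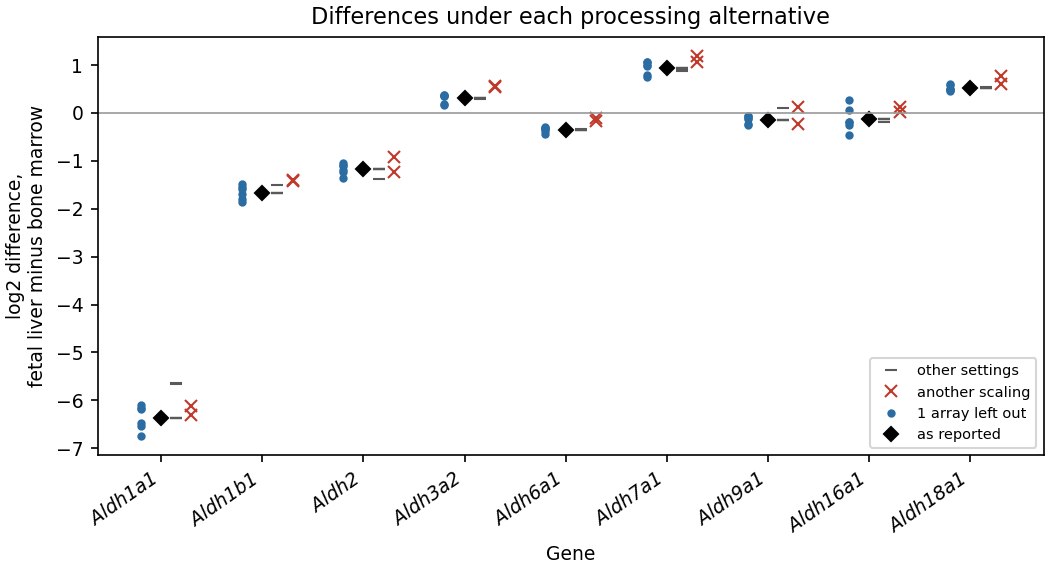
Log2 difference, fetal liver minus bone marrow, of the 9 measured members as reported (diamond), with 1 array left out (blue), with another scaling (red crosses) and under the other settings (dashes). Aldh1a1 stays between -6.75 and -5.65, and Aldh9a1 and Aldh16a1 lie on both sides of 0.

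Across the series, 350 genes were past the threshold as higher in fetal liver and 553 as higher in marrow, 7.77% of 11625. With each array centred on its median the counts were 895 and 438, so that marrow held 32.9% of the calls in place of 61.2%. Leaving out fetal liver replicate 1, 2 or 3 gave 177, 106 and 102 for fetal liver, and leaving out replicate 2 or 3 gave 335 and 317 for marrow. Median signals were 74.1 to 80.2 in marrow and 62.9 to 65.5 in fetal liver (exact two-sided permutation p = 0.1, the smallest that 3 against 3 allows), and 59.7% to 68.8% of probe sets were above the bacterial controls (exact permutation p = 0.2). Of 10 megakaryocyte genes, 9 were above background on every array of each tissue and Gp6 on no marrow array. Itga2b, Slamf1 and Kit among them encode CD41, CD150 and c-kit, on which the cells were sorted, so their signals are no independent check of the MkP label. The sums were 44904 to 50023 in marrow and 38913 to 47257 in fetal liver. Pf4 (21122 ± 1549 against 16945 ± 1915) and Itgb3 (11861 ± 656 against 15101 ± 2276) were the brightest. Neither was called, but neither overlapped between the tissues, and their directions were opposite. Granulocyte genes summed to 38769 to 61867 on the same marrow arrays, though heights of different probe sets are not comparable. Lymphoid genes (9) summed to 627 to 751 and 325 to 454; of 2 measured, Dntt was called lower in fetal liver (at least 5.97-fold) and Cd79b (274 ± 172 against 311 ± 59.8) was not called. Endothelial and stromal genes (10) summed to 2347 to 3393 and 2849 to 4460; of 5 measured, Kdr was called higher in fetal liver (212 ± 53.1 against 1090 ± 590), and Tek (1493 ± 269 against 1539 ± 128), Pecam1 (775 ± 290 against 633 ± 321) and Col1a2 (79.8 ± 27.7 against 237 ± 36.3) were not called.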

How the data were processed

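Total RNA of 6 sorted samples, 3 from bone marrow and 3 from fetal liver, was hybridised to 1 array each, and groups came from the sample labels. What the authors deposited is 1 linear intensity per probe set and array, made by MAS5 according to the submitters' processing notes. Each array had a 2% trimmed mean of 500. For MAS5, settings and version were not given in the sources used here.

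Of 45101 probe sets, 64 controls were removed. Signals were converted to log2(signal + 2.87), and 27022 probe sets with a mean above the 40th percentile were kept. Symbols came from the platform annotation (34945 probe sets with 1 symbol, 932 with several, 9160 not listed), and 0 needed an update through the GRCm38.p6 gene table. Each gene was represented by its brightest kept probe set, chosen anew in every alternative. Tissues were compared by limma (version 3.58.1, R 4.3.3), with a linear model per gene and moderated variances that follow intensity, and p-values were adjusted by Benjamini-Hochberg across 11625 genes, and the procedure was tested on simulated data. No batch or scan information was used. The precision rests on 3 arrays per tissue.

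Members and gene lists were chosen with earlier results of these data known. Named genes were all members, and of each partner list up to 3 genes past the threshold with the largest difference or, where none passed, the 2 with the smallest p. Marker lists are given by counts, summed signals of each gene's brightest probe set and the 2 genes with the highest mean log2 signal, and other marker genes, chiefly those called, were named after their values were seen, and for the 5 genes nearest to Aldh1a1 the measure was the root mean square difference of centred log2 values. Promoter windows came from RefSeq, and none was examined for Aldh2 and Aldh7a1. Those of Aldh4a1, Aldh6a1, Aldh9a1 and Aldh16a1 were examined but are not printed. Figures were drawn with matplotlib 3.10.9. Alternatives covered the offset, scaling, filter, variance model, probe set rule, a floor, the replicate number as a block and each array left out.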

Additional observations from a re-analysis of the deposited data

How the results depend on the processing

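The 9 measured members kept the sign of their difference under every alternative in which they were tested, except Aldh9a1 (13 of 15) and Aldh16a1 (11 of 15). Aldh1a1 was called in all 15 and Aldh2 in 14 of 15. The count of members higher in marrow was 2 or 3 throughout, 2 each time 1 array was omitted, and that of members higher in fetal liver was 0 except under median centring (1). For all genes the count higher in fetal liver moved from 350 to 895 under median centring and 166 without the intensity trend, and ranged from 102 to 320 with 1 array left out; the count higher in marrow moved from 553 to 317 to 451 with 1 array left out. Median centring moved the median of all genes by 0.25. It shifts all genes of an array by the same amount, so the members' differences relative to that median cannot change (Aldh18a1 0.52, Aldh6a1 -0.35). Aldh1a1 was -5.66 with an offset of 16 and -5.65 with the floor, because its fetal liver signals lie near the control level; below that level differences have no order.

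Replicate numbers are shared between tissues, but the deviations of same-numbered arrays correlated at 0.15, -0.02 and 0.08, and 3 of 6 arrays correlated best with their own number, so the numbers were not taken to pair the samples. With a replicate block the counts over all genes were 522 (fetal liver) and 688 (marrow), those of members 0 and 2, and of the named genes only Fabp5 changed its call.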

Other observations

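Over 6 arrays, the 5 genes with the smallest root mean square difference from Aldh1a1 in centred log2 signal (0.64 to 0.74) were Rassf4, Casp1, the inflammatory caspase, Cybb, the catalytic subunit of the phagocyte NADPH oxidase, Lair1, an inhibitory receptor of leukocytes, and Cd27, a receptor of the TNF receptor family. The measure uses fetal liver signals at or below the control level, for Aldh1a1 on 2 of 3 arrays and for Rassf4, Casp1 and Lair1 on all 3, so the order of these genes has no meaning and the list describes little beyond a large difference between the tissues. Cybb read 575, 738 and 1234 in marrow and 7.75, 32.6 and 10.5 in fetal liver, with replicate 2 the only fetal liver array above background, as for Aldh1a1. Cd27 read 1123 to 2216 in marrow and 16.5 to 65.4 in fetal liver. Casp1 read 413 to 865 in marrow, and Rassf4 232 to 497; neither was above background on any fetal liver array.

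Several family members outside the 10 were at the edge of detection in both tissues. Aldh5a1, which oxidises succinic semialdehyde, read 8.48, 41.6 and 32.6 in marrow and 42.5, 35.6 and 30.0 in fetal liver, above background on 2 and 3 arrays. Aldh3b1 read 31.8, 234 and 57.8 in marrow, where replicate 2 stood apart, and 21.6, 50.7 and 73.0 in fetal liver. Aldh1l2, the mitochondrial counterpart of Aldh1l1, was above background on fetal liver replicate 3 alone, at 85.4.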
